A study of Mus musculus with 2 samples.

Results

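The genes described here are the secreted and membrane-bound metalloproteases that cut the extracellular matrix, with their inhibitors. They are the 51 of 28692 genes in the deposited feature list whose symbols name a matrix metalloprotease (Mmp, 23 genes), an ADAMTS protease (19 genes), a member of the ADAMTS-like family (Adamtsl, 5 genes) or a tissue inhibitor of metalloproteases (Timp, 4 genes). The genes were taken by symbol, but this choice was made with earlier results of these data known.

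Single-cell RNA sequencing was performed on the stromal vascular fraction (SVF) of gonadal white adipose tissue (gWAT), the pelleted cells of digested fat, which include stromal and vessel cells and leukocytes but few of the mature adipocytes, which float. There was 1 library from Adipo-Pgam1 KO mice, which carry floxed Pgam1 alleles and Cre under the adiponectin promoter, and 1 from littermate controls. According to the methods of the study, the controls carry the floxed alleles without Cre, whereas their label says wildtype. All mice were C57BL/6 males of 13 weeks of age. Adiponectin-Cre is active in adipocytes, so most cells of this fraction are not direct targets of the deletion. The study did report much lower Pgam1 in KO cells of a fibroblast cluster rich in adipocyte markers. It proposes that these were preadipocytes in which the gene was deleted. The number of mice pooled in a library was not found in the sources used here. With 1 library per genotype, genotype and library cannot be told apart, so no p-value is given, and all intervals (95%) cover counting error only.

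Matrix metalloproteases cut collagens, elastin and other matrix proteins, ADAMTS proteases cut proteoglycans or trim procollagens, and TIMPs block both groups by binding the catalytic zinc site. ADAMTS-like proteins share the ancillary domains of ADAMTS proteases but have no protease domain. In adipose tissue, remodelling of the matrix around adipocytes accompanies growth and loss of fat, and fibroblast-like progenitors, vascular cells and macrophages are known sources of these enzymes.

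Barcodes were kept when they held 500 or more detected genes and no more than 10% mitochondrial UMIs. A UMI (unique molecular identifier) marks a captured transcript 3′ end, so counts need no correction for transcript length. The control library held 8522 barcodes and 42859406 UMIs, and the KO library 2730 barcodes and 13821581 UMIs, of which 3616 control cells and 937 KO cells remained after filtering and removal of likely doublets. Pgam1 itself had 3339 UMIs in the kept control cells, 110 CPM (UMIs of a gene scaled to a total of 1000000 UMIs, interval 106 to 114), and 1112 UMIs in the kept KO cells, 117 CPM (110 to 124). The libraries shared 9 barcode sequences in all and 0 among kept cells. Of 23 clusters, 19 took the name of 1 of 13 cell classes from marker genes, and 4 stayed unnamed with 9.07% of control and 12.4% of KO cells. No cluster was named adipocyte, and each class had UMIs for all of its markers in both libraries, except Ly6g, which was at 0 in the 7 neutrophil-like control cells. The metalloprotease, inhibitor and other listed proteolysis genes were left out of the clustering.

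The 51 genes together took up 124059 UMIs in the control cells (0.409% of all UMIs) and 29987 in the KO cells (0.315%). Mmp1a, Mmp1b, Mmp10 and Mmp21 had no UMI in any kept cell, which allows a level of up to 0.0989 CPM in the control and 0.315 CPM in the KO library. A further 10 genes (Mmp13, Mmp20, Mmp24, Mmp25, Mmp27, Mmp28, Adamts13, Adamts17, Adamts18 and Adamts20) had between 1 and 39 UMIs over both libraries. The other 37 genes had at least 50 UMIs and are described below.

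Of the Mmp genes, 10 lie together on chromosome 9, from Mmp13 (chr9:7272514-7283331, GRCm38) to Mmp7 (chr9:7692090-7699585). They share a position but had different levels and cell classes, from 0 UMIs for Mmp10, Mmp1a and Mmp1b to 2664 UMIs over both libraries for Mmp12. For the 6 of them with over 20 UMIs, the 150 bases before the RefSeq start site (GRCm38.p6, plus strand) are printed to show what these promoters share and where they differ. Capitals mark 2 motifs that were searched on both strands. The first is TGANTCA, which is known as the site of AP-1 factors. The second is the TATA box, searched as the letters TATAAA.
Mmp13, chr9:7272364-7272513: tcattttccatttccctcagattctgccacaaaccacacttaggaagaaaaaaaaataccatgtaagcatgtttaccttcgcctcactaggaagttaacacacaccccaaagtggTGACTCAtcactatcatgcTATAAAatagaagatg
Mmp12, chr9:7344247-7344396: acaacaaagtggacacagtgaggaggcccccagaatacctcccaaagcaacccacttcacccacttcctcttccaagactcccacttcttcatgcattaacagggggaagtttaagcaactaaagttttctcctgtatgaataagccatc
Mmp3, chr9:7445672-7445821: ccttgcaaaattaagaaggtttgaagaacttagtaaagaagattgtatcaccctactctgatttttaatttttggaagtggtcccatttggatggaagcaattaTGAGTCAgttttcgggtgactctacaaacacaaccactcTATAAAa
Mmp8, chr9:7558279-7558428: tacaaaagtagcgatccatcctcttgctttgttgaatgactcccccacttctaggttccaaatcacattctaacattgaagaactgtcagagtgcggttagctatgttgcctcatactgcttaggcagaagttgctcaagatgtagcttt
Mmp27, chr9:7571246-7571395: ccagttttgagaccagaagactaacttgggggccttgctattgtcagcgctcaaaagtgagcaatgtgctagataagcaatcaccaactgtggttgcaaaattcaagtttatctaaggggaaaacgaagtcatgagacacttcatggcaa
Mmp7, chr9:7691940-7692089: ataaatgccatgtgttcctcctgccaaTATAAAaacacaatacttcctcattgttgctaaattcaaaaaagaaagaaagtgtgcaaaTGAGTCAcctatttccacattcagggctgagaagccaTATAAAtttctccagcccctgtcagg
The windows of Mmp13, Mmp3 and Mmp7 hold both motifs, with the AP-1 letters upstream of a TATA box, and those of Mmp12, Mmp8 and Mmp27 hold neither. Windows were at hand for 36 of the 51 genes (39 windows). TGANTCA was found in 8 of the 39 windows, beside 4.24% of 32851 windows over all genes, and TATAAA in 10 of the 39, beside 7.57%. A match is a description of letters and was not tested as a binding site.

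In the littermate control library, 39 of the genes had at least 20 UMIs over the named classes. For 12 of them fibroblast-like cells had the highest level, and for 8 of these 12 the interval lay above that of the next class. Over all genes, 8.67% were highest in fibroblast-like cells. Pericyte and smooth muscle-like cells were highest for 9 genes, mesothelial-like cells for 7, endothelial-like cells for 4, macrophage-like, neutrophil-like and T cell-like cells for 2 each, and NK cell-like cells for 1. Of the 29 genes that reached 20 UMIs in both libraries, 22 had the same class on top in each. The share over all genes is not given for the other classes or for the match of the libraries, so these counts are a description only. The unnamed clusters were not ranked, and the Tenm2-led cluster 17 among them was above the top named class for some genes. Among the named classes of the control, Timp1 and Timp2 were highest in mesothelial-like cells. Timp3 and Timp4 were highest there in pericyte and smooth muscle-like cells.

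**Figure D1:**
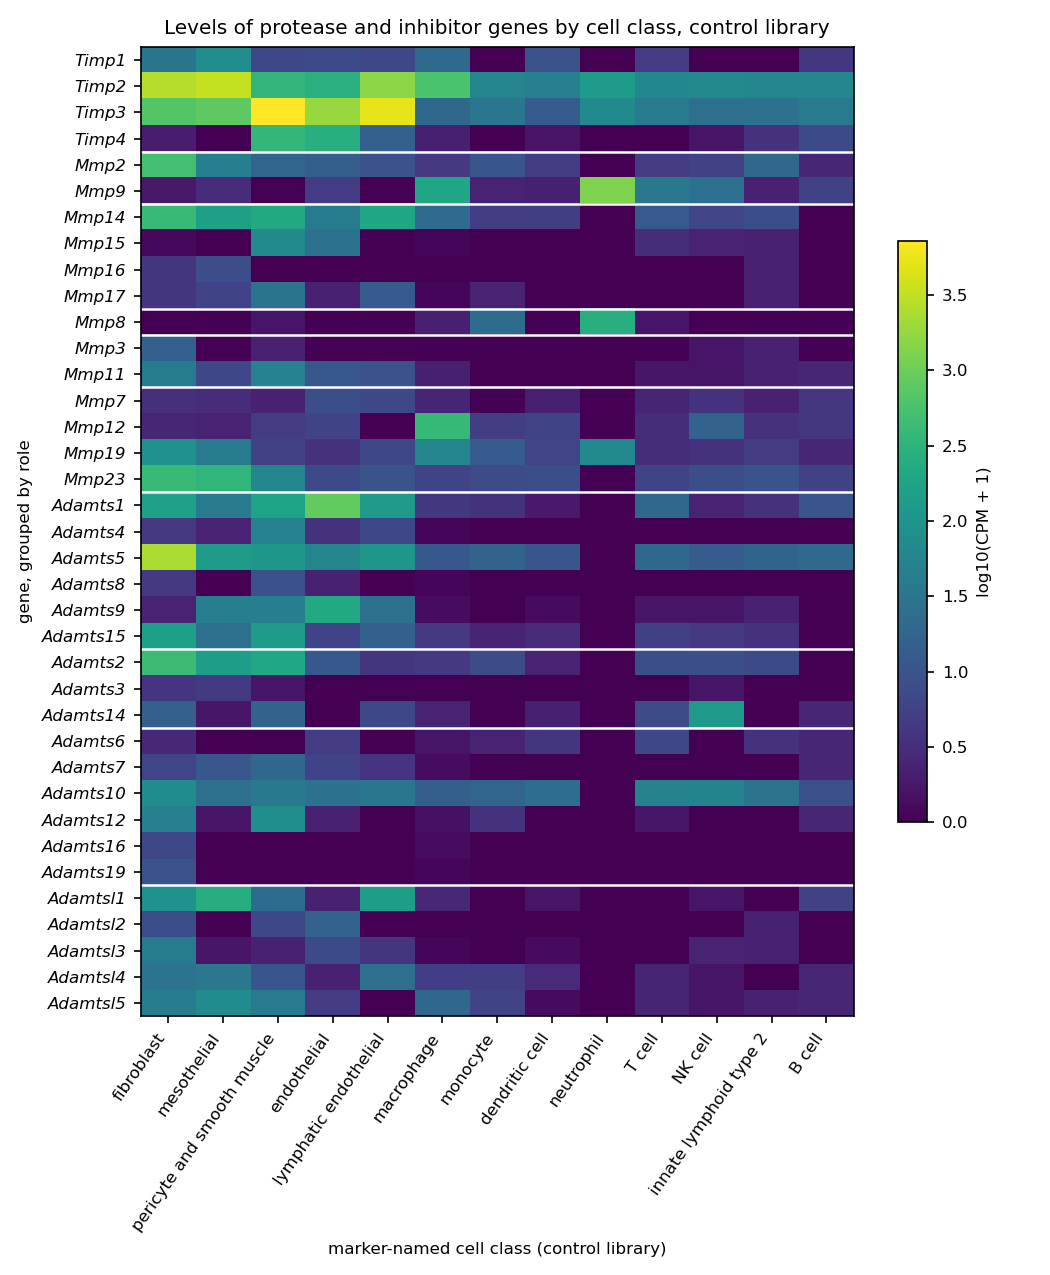
Level of the 37 genes with at least 50 UMIs in each marker-named cell class of the control library, as log10(CPM + 1), with white lines between groups of genes by role. Proteases fill the fibroblast column, whereas Timp3 is brightest in the pericyte and smooth muscle column at 7227 CPM and Mmp9 in the neutrophil column at 1300 CPM.

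Among the inhibitors, Timp2, which also takes part in the activation of pro-MMP2, was the most abundant gene of the whole group in fibroblast-like cells. Its level in the control was 3321 CPM in mesothelial-like cells, 2726 CPM in fibroblast-like cells, 1565 CPM in lymphatic endothelial-like cells and 578 CPM in macrophage-like cells. In the KO library the same classes had 3117, 2527, 1157 and 442 CPM. The order of these classes was therefore the same in both libraries.

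Timp3, which is bound to the matrix and also inhibits ADAMTS proteases, was the inhibitor of the vessel wall (chr10:86300372-86349506). Its control level was 7227 CPM in pericyte and smooth muscle-like cells, 5161 CPM in lymphatic endothelial-like cells, 1862 CPM in endothelial-like cells and 674 CPM in fibroblast-like cells. In the KO library these classes had 3687, 2642, 1551 and 546 CPM, lower in each. The first class held a pair of clusters in unlike shares between the libraries, and its values within them are given with the classes of few KO cells.

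Timp4, an inhibitor known to be expressed in heart and fat, was found almost solely in blood vessel cells. It had 353 CPM in pericyte and smooth muscle-like cells and 264 CPM in endothelial-like cells of the control, and 360 and 356 CPM in the KO library. Timp1, a secreted inhibitor that is induced in injured tissue, was low in the named classes, with its highest control levels there of 76.3 CPM in mesothelial-like and 31.0 CPM in fibroblast-like cells. Their KO levels were 90.9 and 37.9 CPM. Unnamed cluster 9, led by the haemoglobin gene Hbb-bt, had more Timp1, 214 CPM in control and 137 CPM in KO cells, but 56 of its 70 control UMIs were in 1 cell.

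**Figure D2:**
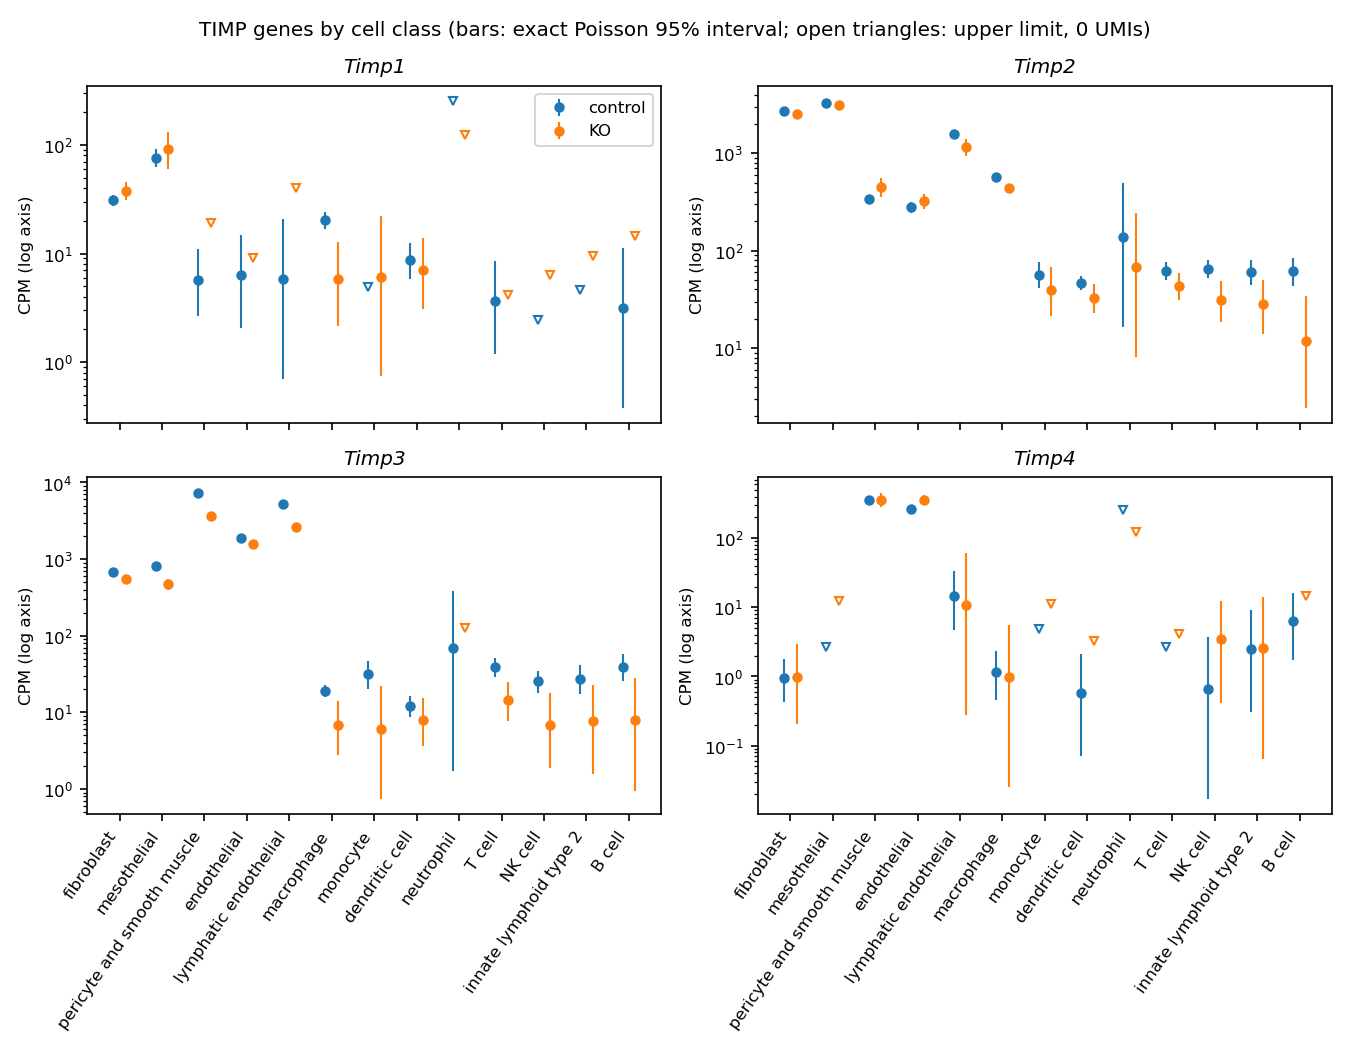
CPM of the 4 Timp genes in each cell class of the control (blue) and KO (orange) library on log axes. Points are levels with exact Poisson 95% intervals, and open triangles mark the upper limit where no UMI was found. In both libraries Timp1 and Timp2 are highest in the mesothelial class, and Timp3 and Timp4 in the pericyte and smooth muscle class.

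Of the gelatinases, which cut denatured collagen and basement membrane collagen, Mmp2 belonged to fibroblast-like cells and Mmp9 to myeloid cells. Mmp2 had 514 CPM in fibroblast-like control cells, 11.4 times the next class, and 96.6% of its UMIs in named classes were there. Mmp9 (chr2:164940780-164955850) had 1300 CPM (782 to 2029) in the 7 neutrophil-like control cells and 182 CPM (171 to 193) in macrophage-like cells.

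Of the membrane-type proteases, Mmp14, the activator of pro-MMP2, had 403 CPM in fibroblast-like and 216 CPM in pericyte and smooth muscle-like cells of the control. Mmp15 (66.6 CPM) and Mmp17 (29.4 CPM) had their highest levels in pericyte and smooth muscle-like cells. Among the named classes Mmp16 was highest in mesothelial-like cells at 7.13 CPM, with an interval that overlapped that of fibroblast-like cells. Unnamed cluster 17 of the control had 18.0 CPM (10.3 to 29.3) of Mmp16 and 32.7 CPM (21.9 to 46.9) of Mmp17.

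The secreted collagenases and the stromelysins had their highest levels in different classes. Mmp8, the neutrophil collagenase, had 4 UMIs in neutrophil-like and 17 in monocyte-like control cells, 274 and 22.5 CPM. Mmp3, or stromelysin-1, had 139 UMIs in fibroblast-like control cells (14.5 CPM), but 43 of these were in 1 cell. Mmp11, or stromelysin-3, had 49.9 CPM in pericyte and smooth muscle-like and 37.1 CPM in fibroblast-like cells, with overlapping intervals.

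Among the remaining MMPs, Mmp12, the macrophage elastase, had 388 CPM (373 to 404) in macrophage-like control cells, 24.3 times the next class. Mmp23, a membrane-anchored MMP, was nearly level between fibroblast-like (391 CPM) and mesothelial-like cells (347 CPM). Mmp19 had 88.4 CPM in fibroblast-like and 57.8 CPM in macrophage-like cells. Mmp7, or matrilysin, an MMP of glandular epithelium, had at most 7.54 CPM in any named class, and most of its UMIs were in an unnamed cluster.

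Among the ADAMTS proteases that cut aggrecan and versican, Adamts5 and Adamts1 lie side by side on chromosome 16 (chr16:85856173-85901828 and chr16:85793827-85803113, both on the minus strand) and had their peaks in different cells. Adamts5 was at 2323 CPM in fibroblast-like control cells, 18.2 times the next class, whereas Adamts1 was at 859 CPM in endothelial-like cells, 4.96 times the next class. Adamts9 had its peak with Adamts1, at 217 CPM in endothelial-like cells. Among the named classes Adamts15 was shared by fibroblast-like (157 CPM) and pericyte and smooth muscle-like cells (136 CPM), while Adamts4 (49.9 CPM) and Adamts8 (8.32 CPM) were highest in the latter. Unnamed cluster 17 of the control had more Adamts15, 230 CPM (199 to 264).

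The procollagen N-proteinases, which trim the amino ends of fibrillar procollagens, were divided between stroma and lymphocytes. Adamts2 had 440 CPM in fibroblast-like and 205 CPM in pericyte and smooth muscle-like control cells, while Adamts3 had at most 3.56 CPM, in mesothelial-like cells. Adamts14 was at 116 CPM (99.3 to 134) in NK cell-like control cells, 7.24 times the next class, with 14.4 CPM in fibroblast-like cells. NK cell-like cells were also its highest class in the KO library, at 81.3 CPM (59.7 to 108). The gene had 135 CPM in the Klra4-led and 70.9 CPM in the Klra1-led NK cell-like cluster of the control, so its UMIs came from both.

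Among the other ADAMTS genes, Adamts12, which cuts cartilage oligomeric matrix protein, had 83.2 CPM in pericyte and smooth muscle-like and 46.6 CPM in fibroblast-like control cells. Adamts7, of like activity, had 18.6 CPM in the former. Adamts10, a fibrillin-binding protease, was spread over classes, from 71.9 CPM in fibroblast-like to 54.6 CPM in NK cell-like and 52.2 CPM in T cell-like cells. Adamts16 and Adamts19 were low but nearly confined to fibroblast-like cells, which held 96.6% and 98.8% of their UMIs in named classes. Within that class, all 56 control UMIs of Adamts16 were in the cluster named here for Cilp and Pi16. Clusters are named for their leading genes other than the 51 genes, and Adamts16 itself stood first among the leading genes of this cluster. Adamts6 had at most 5.88 CPM, in T cell-like cells, with an interval that overlapped that of the next class.

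Among the ADAMTS-like genes, Adamtsl1 had 253 CPM in mesothelial-like cells, 1.72 times lymphatic endothelial-like cells, and Adamtsl5 had 71.3 CPM in mesothelial-like cells. Unnamed cluster 17 of the control had a like level of Adamtsl1, 264 CPM (231 to 300). Adamtsl3 was highest in fibroblast-like cells at 37.7 CPM. Adamtsl4 (32.8 CPM in mesothelial-like cells) and the fibrillin-binding Adamtsl2 (15.1 CPM in endothelial-like cells) had intervals that overlapped those of fibroblast-like cells. For Adamtsl2, 9 of the 12 endothelial-like UMIs were in 1 cell.

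Levels in KO and control cells were then compared within the 7 classes that had at least 50 cells in each library. A gene was measured with at least 20 UMIs over both libraries, counts under 3 were set to 3 when genes were counted, and a gene was called past 2-fold.

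In fibroblast-like cells (779 control and 180 KO cells), 33 genes were measured, of which 4 were past 2-fold higher and 6 past 2-fold lower in the KO library. Over all genes measured in this class, 1.98% were higher and 3.34% lower by the same call. The median log2 ratio was 0.17 over the 33 genes and -0.10 over all genes. Single members thus differed both ways. When each cell was thinned to 2000 UMIs, 0 genes were past 2-fold in either direction, and median depth in this class was 12302 UMIs in control and 17890 in KO cells.

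Of the 4 higher genes, Adamts4, an aggrecanase, was the only one with an interval that excluded no change. It had 33 UMIs in each library, 3.44 CPM in the control and 11.0 CPM in the KO library, a log2 ratio of 1.67 (0.93 to 2.41). It was higher in both fibroblast-like clusters, at 3.15 and 7.42 CPM in the Lrrtm3-led one and at 4.11 and 18.3 CPM in the Cilp-led one. In the KO library 11 of its UMIs were in 1 cell, without which, and without the top control cell, the log2 ratio was 1.19. For Adamts9 (1.03), Mmp27 (1.09) and Adamts6 (1.13) the intervals included 0.

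Of the 6 lower genes, Adamtsl2, Adamts19, Adamts14 and Mmp3 had intervals below 0. Adamtsl2 had 71 control and 6 KO UMIs, 7.41 and 2.00 CPM, which gave a log2 ratio of -1.89 (-3.39 to -0.70). When cells were thinned to 2000 UMIs it was at 0.37, with counts under 3 set to 3. So few KO UMIs remain after thinning that this value gives no direction. Adamts19 had 82 and 8 UMIs, 8.56 and 2.66 CPM, which gave a log2 ratio of -1.69 (-2.94 to -0.64).

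The other two with intervals below 0 had 18 UMIs each in the KO library. Adamts14 had 14.4 and 5.99 CPM, which gave a log2 ratio of -1.27 (-2.06 to -0.55). Mmp3 had 14.5 and 5.99 CPM, which gave a log2 ratio of -1.28 (-2.07 to -0.56), with 22 control and 5 KO cells behind it. For Mmp3, 43 of the 139 control UMIs and 13 of the 18 KO UMIs were each in 1 cell, without which the log2 ratio was -2.59, and with the filter at 1000 genes and 5% mitochondrial UMIs it was -0.39. For Mmp7 (23 and 2 UMIs, log2 ratio -1.85, -4.98 to 0.17) and Adamts8 (32 and 4 UMIs, -1.33, -3.29 to 0.17) the intervals included 0.

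Adamts5, the most abundant protease of these cells in the control, was lower in the KO library by just under 2-fold. Adamts5, Mmp2 and, in macrophages, Mmp19 fall outside the rule for naming ratios and were chosen after their values were seen. Adamts5 had 22253 control and 3556 KO UMIs, 2323 and 1183 CPM, and its log2 ratio was -0.97 (-1.02 to -0.92). It was lower in the Lrrtm3-led cluster (2608 and 1306 CPM) and in the Cilp-led cluster (1673 and 930 CPM), and UMIs were seen in nearly every cell, 776 of 779 control and 179 of 180 KO cells. In T cell-like cells, which should lack the gene, 22 of 287 control cells had a UMI, at a median depth of 4462 UMIs against 12302 in fibroblast-like cells.

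Mmp2 moved the other way, from 514 to 746 CPM, which gave a log2 ratio of 0.54 (0.47 to 0.61). The ratio was 0.65 (0.57 to 0.73) in the Lrrtm3-led and 0.16 (-0.01 to 0.33) in the Cilp-led cluster, so it came mainly from the former. Its activator Mmp14 had 403 and 464 CPM, and its inhibitor Timp2 had 2726 and 2527 CPM, which gave a log2 ratio of -0.11 (-0.15 to -0.07).

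The remaining inhibitors of these cells differed by less than 2-fold. Timp3 had 674 and 546 CPM, which gave a log2 ratio of -0.31 (-0.38 to -0.23), and Timp1 31.0 and 37.9 CPM, 0.29 (-0.03 to 0.61). Adamts2 and Mmp23 were close to level, at 440 and 468 CPM and at 391 and 392 CPM.

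**Figure D3:**
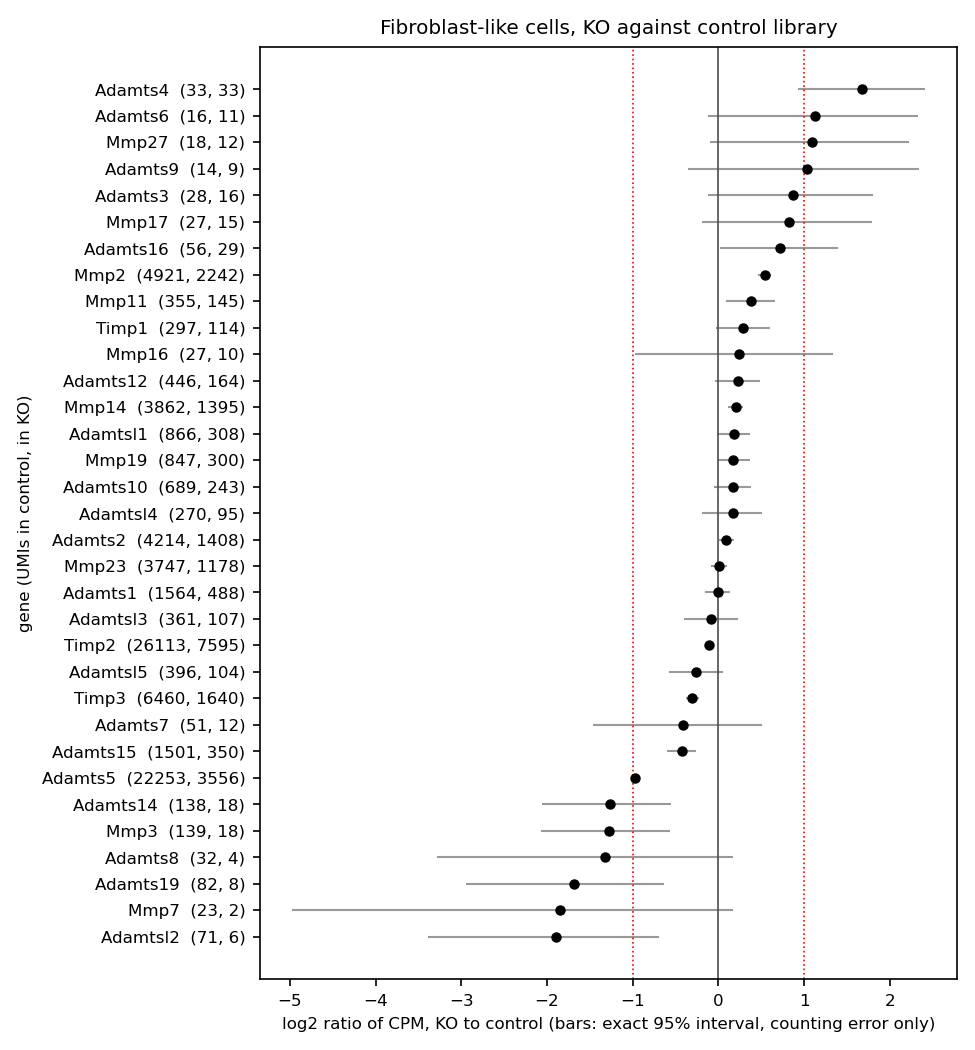
Log2 ratio of CPM, KO to control, of the 33 genes measured in fibroblast-like cells, with exact 95% intervals (counting error only), UMIs of each library in brackets and red dotted lines at 2-fold. Adamts4 stands highest at 1.67, Adamts5 lies next to the lower line at -0.97, and the genes with the widest intervals have few UMIs.

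Several other measures moved with these fibroblast-like values. The 16 listed genes that tissue dissociation is known to raise had a summed level of 4877 CPM in control and 7593 CPM in KO cells, 5 of them were past 2-fold higher (Fos, Fosb, Atf3, Socs3 and Nr4a1) and 15 had intervals above 0, with a median log2 ratio of 0.62. The 8 listed macrophage genes were C1qa, C1qb, C1qc, Lyz2, Cd74, Apoe, Mrc1 and Pf4. Their summed level was 491 CPM in control and 1058 CPM in KO fibroblast-like cells, with none at 0. The list is not confined to macrophages, as B cell-like control cells had 8972 CPM, and the sum was not split by gene here. The part of these measures in the ratios above was not tested.

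Of 40 further genes of matrix proteolysis (plasminogen system, cathepsins, ADAMs, procollagen enhancers), 37 were measured in fibroblast-like cells, with 0 past 2-fold higher and 1 lower, the cathepsin gene Ctss, and a median log2 ratio of -0.03. Ctss had 54 and 5 UMIs, which gave a log2 ratio of -1.76 (-3.44 to -0.45). Of 24 listed substrates, 21 were measured, 2 were higher and 1 was lower, with a median of -0.25. Igfbp3 (27.6 and 86.5 CPM) and Igfbp5 (53.2 and 113 CPM), binding proteins of insulin-like growth factors, were the higher ones. Without the top cell of each library, which in the KO library held 110 of 260 Igfbp3 UMIs and 96 of 339 Igfbp5 UMIs, the levels were 23.3 and 50.2 CPM and 48.5 and 81.4 CPM. Thbs1, which encodes the matricellular thrombospondin-1, was the lower one, with 140 and 39.9 CPM.

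In macrophage-like cells (642 control and 89 KO cells), 17 genes were measured, with 0 past 2-fold higher and 6 past 2-fold lower in the KO library. Over all genes of this class 2.46% were higher and 5.35% lower. The 6 were Mmp9, Mmp12, Timp1, Timp3, Adamtsl5 and Adamts5, each with an interval below 0. With TMM or median-of-ratios scaling 5 of the measured genes were past 2-fold lower. The class held a pair of clusters in unlike shares, so each gene is given by cluster as well. The cluster led by Cd209f, Fcna and Folr2, genes of resident tissue macrophages, made up 56.2% of the class among control cells and 39.3% among KO cells. The cluster led by Lyz1 and F7, in which Mmp12 itself stood first among the leading genes, made up 43.8% and 60.7%.

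Mmp9 had 1108 control and 68 KO UMIs, 182 and 66.7 CPM, which gave a log2 ratio of -1.45 (-1.82 to -1.09). It belonged to the Cd209f-led cluster, where 367 CPM in control and 121 CPM in KO cells gave -1.60 (-2.11 to -1.14). In the Lyz1-led cluster it had 56.2 and 42.6 CPM, -0.40 (-1.01 to 0.16). The 30 KO UMIs there were in 2 of 54 cells, with 16 of them in 1 cell. Without the top cell of each library the levels were 42.1 and 20.3 CPM, a log2 ratio of -1.05. The lower level was thus beyond counting error within the Cd209f-led cluster. The Lyz1-led cluster had too few KO cells with a UMI to say whether the clusters differed.

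Mmp12 (chr9:7344381-7369499) had 2365 and 195 UMIs, 388 and 191 CPM, which gave a log2 ratio of -1.02 (-1.24 to -0.81). Nearly all of these UMIs were in the Lyz1-led cluster, with 651 CPM in control and 277 CPM in KO cells. They came from few cells, 41 of 642 control and 5 of 89 KO cells, and 1 control cell held 780 UMIs and 1 KO cell 137. In NK cell-like cells 4 of 340 control cells had a UMI, at a median depth of 4358.5 UMIs against 8056.5. Without the top cell of each library the log2 ratio was -2.16, while it was -0.14 as a mean of per-cell CPM. It was 0.20 when cells were thinned to 2000 UMIs and 2.33 with the filter at 1000 genes and 5% mitochondrial UMIs, so neither its size nor its direction held over the settings.

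Timp1 was lower in the whole class, with 124 and 6 UMIs, 20.4 and 5.89 CPM, which gave a log2 ratio of -1.79 (-3.26 to -0.63). Its UMIs were mostly in the Lyz1-led cluster, at 31.4 and 8.52 CPM, with 43 of the control UMIs in 1 cell. All 6 KO UMIs of the class were in the Lyz1-led cluster. The Cd209f-led cluster thus had no KO UMI. Its log2 ratio of 1.23 came from counts under 3 being set to 3 and gives no direction. In the whole class the log2 ratio was 1.52 with the filter at 1000 genes. When thinned it was 0.61, again with counts under 3 set to 3. Adamtsl5 had 19.4 and 7.85 CPM, -1.30 (-2.55 to -0.28), and 43.0 and 25.4 CPM in the Cd209f-led cluster, where the interval included 0 (-2.01 to 0.27).

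Timp3 and Adamts5, genes of stromal and vascular cells, had low counts in macrophage-like cells. Timp3 had 116 and 7 UMIs, 19.0 and 6.87 CPM, which gave a log2 ratio of -1.47 (-2.82 to -0.38). Adamts5 had 61 control UMIs and 0 in KO cells, 10.0 CPM against a KO level of at most 3.62 CPM, which gave an upper 95% limit of -1.42 for the log2 ratio. With counts under 3 set to 3 it was 1.16 with the filter at 1000 genes and 1.03 when thinned. In the thinned value the KO count of 0 was itself set to 3, so it gives no direction. The 6 listed fibroblast genes (Dcn, Col1a1, Col1a2, Col3a1, Gsn and Lum) had a summed level of 656 CPM in control and 411 CPM in KO macrophage-like cells, with none at 0. The part of such RNA in the Timp3 and Adamts5 values was not tested.

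Not all proteases of these cells were lower. Mmp19 had 352 and 89 UMIs, 57.8 and 87.3 CPM, which gave a log2 ratio of 0.60 (0.24 to 0.94). It was 10.5 and 44.5 CPM in the Cd209f-led cluster, a log2 ratio of 2.08 (1.02 to 3.07), and 89.9 and 106 CPM in the Lyz1-led cluster, 0.24 (-0.14 to 0.61). Timp2 had 578 and 442 CPM in the class, and 1100 and 886 CPM in the Cd209f-led against 223 and 244 CPM in the Lyz1-led cluster.

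**Figure D4:**
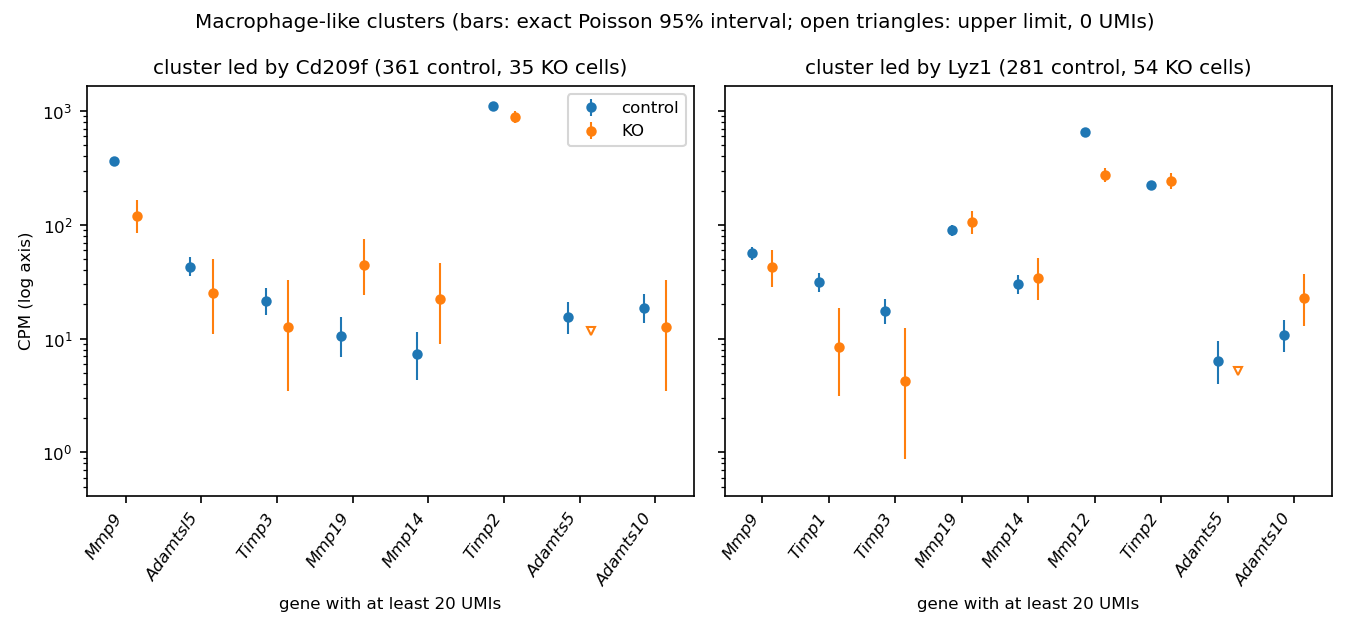
CPM of the genes with at least 20 UMIs in each macrophage-like cluster, in control (blue) and KO (orange) cells on a log axis, with exact Poisson 95% intervals and open triangles for the upper limit at 0 UMIs. Mmp9 is lower in KO cells of the Cd209f-led cluster (367 and 121 CPM), and Mmp12 in those of the Lyz1-led cluster (651 and 277 CPM).

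The dissociation list had 3 of 16 genes past 2-fold higher in KO macrophage-like cells, a median log2 ratio of 0.35 and summed levels of 6704 and 8613 CPM. Of the 40 further proteolysis genes 27 were measured, with 2 higher and 3 lower and a median of -0.08, beside -0.12 over all genes. Ctsk, the collagen-cutting cathepsin K, had 12.1 CPM in control and 106 CPM in KO cells, and Plaur, the urokinase receptor, 58.6 and 141 CPM. Of the Ctsk UMIs, 49 of 74 in control and 100 of 108 in KO cells were in 1 cell each, without which the levels were 4.11 and 7.89 CPM, and those of Plaur were 56.0 and 103 CPM without its top cells. Of the substrates 20 were measured, with 2 higher and 11 lower. The higher ones were Thbs1 (10.0 and 512 CPM) and the proteoglycan gene Vcan (16.2 and 70.6 CPM). In KO cells 218 of 522 Thbs1 UMIs and 35 of 72 Vcan UMIs were in 1 cell each, and without the top cells the levels were 7.06 and 307 CPM and 12.7 and 37.1 CPM. The lower ones included Dcn (187 and 68.7 CPM), 1 of the 6 fibroblast genes above.

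In endothelial-like cells (153 and 62 cells), 11 genes were measured and 0 were past 2-fold in either direction, beside 2.5% higher and 7.68% lower over all genes. Adamts1 had 859 and 830 CPM, which gave a log2 ratio of -0.05 (-0.24 to 0.14), and Adamts9 217 and 253 CPM. Timp4 had 264 and 356 CPM, 0.43 (0.12 to 0.74), and Timp3 1862 and 1551 CPM, -0.26 (-0.40 to -0.13). Timp2 had 278 and 324 CPM, 0.22 (-0.10 to 0.54). The dissociation list had a median log2 ratio of 0.56 in these cells.

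In dendritic cell-like cells (277 and 70 cells), 7 genes were measured, with 1 higher and 1 lower, beside 1.63% and 5.6% over all genes. Mmp19 was higher, with 19 and 14 UMIs, 5.50 and 12.5 CPM, which gave a log2 ratio of 1.18 (0.07 to 2.25), its KO UMIs were in 5 cells, and the log2 ratio was -0.50 at clustering resolution 0.3. Adamts5 was lower, with 34 and 2 UMIs, which gave a log2 ratio of -2.47 (-5.57 to -0.50). When thinned it was at 1, but its KO count, under 3 before thinning, was then set to 3. The thinned value therefore gives no direction. The intervals of Timp1 (8.69 and 7.12 CPM), Timp2 (46.6 and 32.9 CPM) and Timp3 (12.2 and 8.01 CPM) included no change.

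In the lymphoid classes, low counts of stromal inhibitors were lower in the KO library. In T cell-like cells (287 and 141 cells) 7 genes were measured, with 0 higher and 3 lower (Timp3, Adamts1 and Adamts5), beside 2.22% and 5.21% over all genes. In NK cell-like cells (340 and 93 cells) 6 were measured, with 0 higher and 4 lower (Mmp9, Mmp12, Timp2 and Timp3), beside 2% and 5.79%. In innate lymphoid type 2-like cells (178 and 58 cells) 4 were measured, with 0 higher and 2 lower (Timp2 and Timp3), beside 3.5% and 7.02%.

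RNA of fibroblasts moved with these lymphoid values in each class, and RNA of macrophages did so only in T and NK cell-like cells. Over the T, NK, innate lymphoid type 2 and B cell-like classes, Timp2 ranged from 60.0 to 65.3 CPM in the control and from 11.8 to 43.6 CPM in the KO library, and Timp3 from 25.3 to 39.2 and from 6.92 to 14.5 CPM. The 6 listed fibroblast genes had summed levels of 694 to 863 CPM in these classes of the control and of 295 to 365 CPM in those of the KO library, with none at 0. The 8 listed macrophage genes had summed levels of 378 CPM in control and 107 CPM in KO NK cell-like cells, where 2 of them were at 0 in the KO library, and of 249 and 109 CPM in T cell-like cells, where 1 was. This sum was not lower in innate lymphoid type 2-like cells (335 and 354 CPM) or in B cell-like cells (8972 and 10252 CPM). The part of such RNA in the lymphoid values was not tested. In T cell-like cells, 17 of the 26 control UMIs of Adamts1 were in 1 cell, and without the top cells the log2 ratio was -0.25. In NK cell-like cells 21 of the 24 control UMIs of Mmp12 were in 1 cell, and without it 3 remained. With the filter at 1000 genes and 5% mitochondrial UMIs, Timp3 (0.11) and Adamts1 (0.21) in T cell-like and Mmp9 (0.0206) in NK cell-like cells had ratios above 0.

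Adamts14, the gene with its peak in NK cell-like cells, had 174 and 47 UMIs there, 116 and 81.3 CPM, which gave a log2 ratio of -0.51 (-1.01 to -0.04). It was -0.33 (-0.91 to 0.21) in the Klra4-led and -0.57 (-1.67 to 0.42) in the Klra1-led cluster, where the intervals included 0.

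The classes with fewer than 50 KO cells were not part of the comparison, and the values here were chosen after they were seen. In pericyte and smooth muscle-like cells (217 and 22 cells), Timp3 had 11293 and 716 UMIs, which gave a log2 ratio of -0.97 (-1.08 to -0.86). The class held a Gipr-led cluster of 128 control and 7 KO cells and a Kcnk3-led cluster of 89 and 15 cells. Within them Timp3 was at 10226 and 7040 CPM, -0.54 (-0.73 to -0.36), and at 4115 and 2955 CPM, -0.48 (-0.62 to -0.34), so the difference was smaller within the clusters than over the class. Adamts1 had 173 and 360 CPM in the class, 1.06 (0.66 to 1.44), but 43 of the 70 KO UMIs were in 1 cell, and without the top cells it had 156 and 153 CPM. In lymphatic endothelial-like cells (56 and 12 cells) Timp3 was at -0.97 (-1.17 to -0.77). In monocyte-like cells (115 and 26 cells), Mmp19 had 9 and 35 UMIs, 11.9 and 107 CPM, and Mmp8 17 and 36 UMIs, 22.5 and 110 CPM. Adamts5 had 108 and 206 CPM in pericyte and smooth muscle-like cells, 0.94 (0.40 to 1.44), but 0.44 (-0.11 to 0.95) in the Kcnk3-led cluster and 26 and 0 UMIs in the Gipr-led one. In lymphatic endothelial-like cells it had 109.6 and 218 CPM, 0.99 (0.14 to 1.81), from 38 and 20 UMIs.

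Over all kept cells, where the makeup of the fraction enters as well, 41 genes were measured, with 6 higher and 6 lower, beside 3.83% and 2.74% over all genes. Fewer cells of a class and less RNA per cell cannot be told apart in such sums. Higher were Mmp7, Mmp8, Mmp25, Mmp27, Adamts6 and Adamts13, and lower were Mmp3, Mmp9, Mmp12, Mmp13, Adamts7 and Adamts19. For Mmp27 and Mmp13 the intervals included no change. Of the 212 KO UMIs of Mmp7, 104 were in 1 cell, without which and without the top control cell the levels were 4.65 and 11.5 CPM, and in the barcodes that the filters removed Mmp7 was lower in the KO library, at 87.5 and 43.0 CPM. Timp3 was at 805 CPM in the control and 414 CPM in the KO cells, and pericyte and smooth muscle-like cells, its richest class, were 217 of 3616 and 22 of 937 cells. Timp2 had 1234 and 1046 CPM, Timp1 22.4 and 19.3 CPM, and Timp4 26.2 and 23.5 CPM. Adamts13, the protease that cuts von Willebrand factor, had 4 and 16 UMIs, which gave a log2 ratio of 3.67 (2.04 to 5.71), with no class above 6 UMIs.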

How the data were processed

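The authors aligned the reads and deposited UMI counts per gene and cell barcode as whole numbers without normalization, with Cell Ranger 3.0.1, Seurat 3.1.5, R 4.0.1 and mm10 named in the submitters' processing notes. Cells of at least 500 genes and with up to 10% mitochondrial UMIs were selected. Scrublet scores were computed per library, and the top scores were removed as likely doublets, in a share of 0.8% per 1000 barcodes (265 control and 21 KO cells). Median depth of kept cells was 6888.5 and 7481 UMIs. Counts were scaled to 10000 per cell, and 2000 variable genes (members and listed proteolysis genes excluded), 30 principal components, 20 neighbours and Leiden resolution 0.5 were used.

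A cluster was named when the mean z-score of a class's markers was above 0.5 and 0.5 above that of the next class. At least 3 of the markers had to be found in 10% of its cells, only classes that met this were considered, and markers of other classes could not outnumber its own among the top 10 genes by fold. Parts of this rule were set after the clusters were seen. T and NK cell classes, and macrophage, monocyte and dendritic cell classes, were treated as nested.

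UMIs were summed per class and library and divided by all UMIs (CPM). Exact Poisson (levels) and conditional binomial (ratios) intervals of 95% were used. Ratios against 0 UMIs used a limit of 3. Levels are named for the Timp genes and genes of at least 50 UMIs, and ratios for the Timp genes and genes past 2-fold with an interval that excludes 0. Gene positions come from a GENCODE annotation of GRCm38, which held all 51 symbols. The members and lists were chosen with earlier results of these data known. The ratio and interval steps were tested on simulated Poisson counts with known changes at the depths of fibroblast-like cells. Filtering, doublet removal, clustering and naming were not simulated, and neither was spread between cells. There were 14 alternatives, and 4 within clusters were added after the data were seen. The software was R 4.3.3 with edgeR 4.0.16 (TMM factors only) and Python 3.11.15 with matplotlib 3.10.9, igraph 0.11.9, scanpy 1.11.5, scipy 1.17.1, scikit-learn 1.9.0, leidenalg 0.10.2, pandas 2.3.3 and numpy 2.4.6.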

Additional observations from a re-analysis of the deposited data

Results flagged for a closer look

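Mmp7 had a signal in cells that entered no comparison. In unnamed cluster 15 it had 205 UMIs in 13 of 28 KO cells, 1108 CPM (962 to 1271), and 104 UMIs in 31 of 81 control cells, 364 CPM (297 to 440), whereas no named class of the control exceeded 7.54 CPM. In the KO library 104 of the 205 UMIs were in 1 cell. The epithelial markers Epcam (600 and 297 CPM in KO and control), Krt8 (730 and 790 CPM), Krt18 (481 and 280 CPM) and Wfdc2 (81.1 and 41.9 CPM) were found in the same cluster, Cdh1 was at 32.4 and 31.5 CPM, and Cldn4 was at 0 in both. Barcodes that the filters removed held 852 Mmp7 UMIs in the control (87.5 CPM) and 177 in the KO library (43.0 CPM), beside 183 and 212 in barcodes that passed.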

How the results depend on the processing

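No paired analysis was possible because there is 1 library per genotype. The 36 named ratios were recomputed under 14 other settings, which gave 495 values, while 9 had no value. Of the 495, 437 kept their sign and stayed inside the interval of the value reported, 39 kept it and moved outside, and 19 changed sign, 6 of them for Timp ratios that were not past 2-fold (Timp1 and Timp3 in dendritic cell-like, Timp2 and Timp4 in endothelial-like and Timp1 in fibroblast-like cells). The count of genes highest in fibroblast-like cells stayed within 1.5 times of 12 under each alternative run. In fibroblast-like cells the number past 2-fold higher was 2 when 200 genes sufficed and mitochondrial UMIs could reach 20%, 2 without doublet removal, 2 without the cell with most UMIs, 1 with a minimum of 50 UMIs and 0 when each cell was thinned to 2000 UMIs, where the number lower was 0 too. In macrophage-like cells the number higher was 2 under the 200-gene filter and 1 without doublet removal, at resolution 0.3, at resolution 1.0, as mean per-cell CPM, with a minimum of 10 UMIs and when thinned. The number lower was 2 when 1000 genes were required and mitochondrial UMIs limited to 5%, which left 132 control and 15 KO cells, and 1 when thinned. The shares over all genes under these settings are not given here, so these counts show only how far the calls moved.

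Among ratios past 2-fold, signs changed under the 1000-gene filter for Timp1 (1.52), Mmp12 (2.33) and Adamts5 (1.16) in macrophage-like cells, Timp3 (0.11) and Adamts1 (0.21) in T cell-like cells and Mmp9 (0.0206) in NK cell-like cells. Adamts1 in T cell-like cells was at 0.59 under the 200-gene filter, and Mmp19 in dendritic cell-like cells at -0.50 at resolution 0.3. Thinning turned Adamtsl2 in fibroblast-like cells (0.37), Timp1 (0.61), Mmp12 (0.20) and Adamts5 (1.03) in macrophage-like cells and Adamts5 in dendritic cell-like cells (1), with counts under 3 set to 3. The KO counts of Adamts5 were under 3 in both classes before thinning, so that limit set its values. Adamtsl2 and Timp1 had few KO UMIs before thinning, so their thinned values give no direction either. Mmp9 in macrophage-like cells stayed between -2.24 and -1.36 under these 14 settings.

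Counts within single clusters were added after the data were seen. In fibroblast-like cells, 1 of 26 measured genes was higher and 3 were lower in the Lrrtm3-led cluster, beside 2.01% and 3.75% over all genes. In the Cilp-led cluster 2 of 27 were higher and 3 lower, beside 1.96% and 4.05%. In macrophage-like cells, 2 of 8 were higher and 1 lower in the Cd209f-led cluster, beside 3.38% and 6.42%. In the Lyz1-led cluster 1 of 9 was higher and 3 were lower, beside 3.06% and 4.69%. Timp1 in the Cd209f-led and Adamtsl5 in the Lyz1-led cluster had no KO UMI. Their log2 ratios of 1.23 and 0.36 came from counts under 3 being set to 3 and give no direction. TMM and median-of-ratios factors moved ratios by at most 0.10 on the log2 scale, and among all genes past 2-fold in fibroblast-like cells the share that was higher was 46.1% with TMM. The cause of these shifts was not tested.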
